A study of Mus musculus with 32 samples.

Results

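The tumors described here are the 12 tumors of the anti-PD-1 resistant MC38 line among 32 sequenced libraries, ranked by Ptprc, the gene of the leukocyte surface phosphatase CD45. The tumors were taken by their label, and the genes described were chosen by their measured Spearman correlation with Ptprc over these 12 tumors. MC38 is a mouse colon adenocarcinoma line, and anti-PD-1 antibodies block PD-1, an inhibitory receptor of T cells. The resistant line was compared as 12 subcutaneous tumors and 5 cultures. The parental line gave 13 subcutaneous tumors and 2 cultures. All tumors, of both lines, grew in C57BL6/J mice that received no treatment, so resistance was a property of the injected line and not of a treatment during growth. The labels name no genetic change and do not say whether the resistant line was 1 clone.

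CD45 sits on nearly all nucleated blood cells and sets the activity of Src family kinases below antigen receptors. Carcinoma cells do not normally make it, so in bulk tumor RNA its transcript is read as one of host leukocytes. Macrophages usually make up much of the leukocyte infiltrate of MC38 tumors, beside T cells, and interferon gamma from T cells raises MHC and chemokine genes in the other cells of a tumor.

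Ptprc was listed at 19.7 TPM in the lowest resistant tumor, 22.8 TPM at the median and 50.3 TPM in the highest. The parental tumors held 14.5, 34.6 and 53.7 TPM at the same points. TPM is a transcript's share of its library per unit of length. Resistant cultures held 0 to 0.147 TPM and parental cultures 0 to 0.0441 TPM, far below every tumor. Replicate 7 stood highest among resistant tumors at 50.3 TPM, followed by replicate 4 at 34.99, replicate 10 at 32.7, replicate 1 at 31.9 and replicate 5 at 29.02 TPM. The other 7 tumors lay between 19.7 and 22.9 TPM (replicates 12, 11, 8, 2, 9, 3 and 6, from low to high). Each tumor was measured once and the table holds no read counts, so the order inside that narrow range cannot be tested. In bulk RNA, fewer cells of a type and less RNA per cell cannot be told apart.

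The ranking was meant to order tumors by leukocyte content, and the leukocyte genes followed it in part. Of 18 pan-leukocyte genes, all higher in resistant tumors than in resistant culture, 1 had a Spearman rho with Ptprc of at least 0.7. That is a share near the 5.44% of all ranked genes. The gene was Cd53, a tetraspanin of leukocytes (rho 0.85), and the median rho of the 18 was 0.07. With a GC index of the libraries held, which is described with the base composition, the median was 0.33 and 2 genes were at 0.7 or above. Only 6 of the 18 were under 0.5 TPM in every resistant culture, and Laptm5 averaged 79.7 TPM there, so cultured cancer cells made some of them too. The 6 were split as well, with rho 0.65 for Rac2 and Dock2 and 0.41 for Cd48. Lcp2, Fermt3 and Hcls1 had -0.11, -0.34 and -0.45. The mean level of the 18, a pan-leukocyte score on the log2(TPM + 1) scale, was 3.91, 4.31 and 4.55 at the lowest, median and highest resistant tumor. This score was 0.99 to 1.13 in resistant culture. It was nearly unrelated to Ptprc over the 12 resistant tumors (rho 0.01, Pearson r 0.25, r 0.37 without the 2 tumors farthest from the median Ptprc). In the 13 parental tumors the same score followed Ptprc with rho 0.88 and r 0.89 (permutation test, adjusted p = 0.00168 and 0.000525 over 7 relations), and r was 0.73 without the 2 farthest. A second score used 33 genes of the leukocyte lists that stayed under 0.5 TPM in every resistant culture, 13 of them macrophage and monocyte genes. Taken singly, the 33 had a median rho of 0.36 with Ptprc in resistant tumors, with 21 above 0 and 12 below. The score had rho 0.71 and r 0.66 with Ptprc in resistant tumors, and r 0.66 without the 2 farthest. In parental tumors it had rho 0.76 and r 0.89 (permutation test, adjusted p = 0.00681 and 0.000525), and r 0.70 without the 2 farthest. As the measures of leukocyte content differed in how far they followed Ptprc, the order is called a Ptprc ranking.

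Ptprc also moved with the base composition of the libraries. A GC index was made for every library. Each gene was centred on its mean log2 level over the 25 tumors, and the median of 1274 genes with under 42% GC in their longest transcript was subtracted from the median of 2146 genes with over 55%. It ran from -0.52 to 0.26 in resistant tumors, against -0.27 to 0.81 in parental tumors. With Ptprc it had rho -0.61 and r -0.62 in resistant tumors (r -0.44 without the 2 farthest), and rho -0.77 and r -0.74 in parental tumors (permutation test, adjusted p = 0.00681 and 0.00793, r -0.75 without the 2 farthest). The pan-leukocyte score had rho 0.52 with the GC index in resistant tumors. Transcripts encoded in the mitochondrial genome took 7.20% to 14.4% of TPM in resistant tumors and 4.65% to 10.6% in parental tumors. That share had rho 0.81 and r 0.82 with Ptprc in resistant tumors (r 0.66 without the 2 farthest), and rho 0.73 and r 0.71 in parental tumors (permutation test, adjusted p = 0.00907 and 0.00898, r 0.61 without the 2 farthest). Within the 7 resistant tumors whose titles are numbered 51 to 60, rho with Ptprc was -0.64 for the GC index, 0.82 for the mitochondrial share, -0.07 for the pan-leukocyte score and 0.57 for the 33-gene score. The other 5 resistant tumors, numbered 41 to 45, are too few for a value. A length index, made in the same way from long and short transcripts, had rho 0.71 with Ptprc in resistant tumors. In parental tumors it had rho 0.76 (permutation test, adjusted p = 0.00681). The share of TPM held by the most highly expressed genes had rho 0.77 in resistant tumors. In parental tumors that share had rho 0.19 (permutation test, adjusted p = 0.529). Neither of these measures was held in any fit. The longest Ptprc transcript has 39.4% GC over 5740 bases, which puts Ptprc itself among the GC-poor genes.

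**Figure D1:**
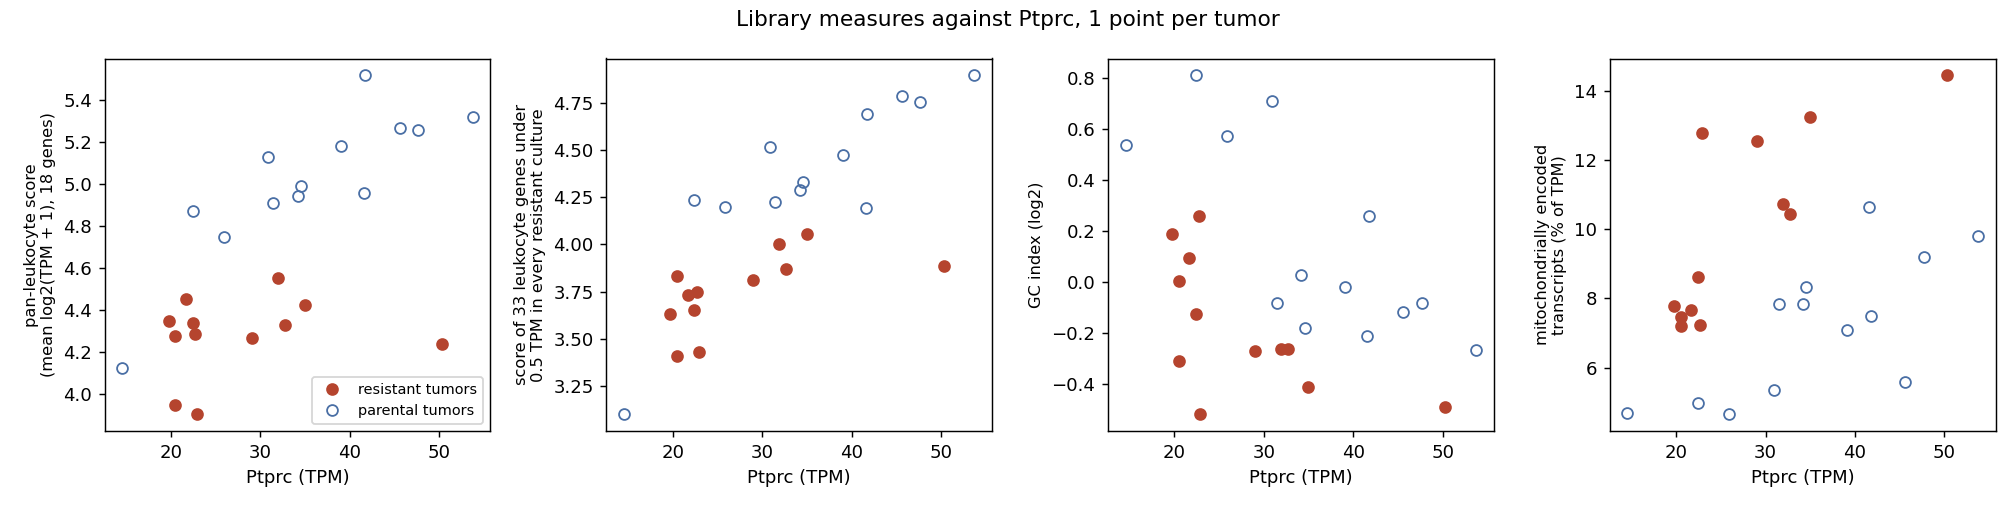
The pan-leukocyte score, the 33-gene score, the GC index and the mitochondrial share (y axes) against Ptprc in TPM (x axes), with 1 point per tumor, filled for the 12 resistant and open for the 13 parental tumors. In resistant tumors the pan-leukocyte score has rho 0.01 with Ptprc, the 33-gene score 0.71, the GC index -0.61 and the mitochondrial share 0.81.

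Among 10808 genes at 1 TPM or more in all 12 resistant tumors, 588 had rho of at least 0.7 with Ptprc (5.44%) and 734 had rho of at most -0.7 (6.79%). These values chose the genes described next and are given with no test. Counts of list members at either limit are to be read beside these shares. With the GC index held the shares of all genes were 2.63% and 2.87%. All genes were measured in the same 12 libraries, whose base composition differs and whose depth is unknown, so a rho describes these libraries only. Just inside the expression limit were Zfp11, P2ry2 and Rhof with a lowest value of 1.001 TPM and rho of 0.27, -0.12 and -0.06. Just outside were Pgf, Zfp992 and Adm at 0.9992, 0.999 and 0.9982 TPM with rho of 0.01, 0.27 and -0.08. Without replicate 8 the counts were 1015 and 1380.

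Most of the genes at the high end reached 0.5 TPM in a resistant culture. Of the 588, 30 were under 0.5 TPM in every resistant culture, out of 368 such genes that were ranked (7 of the 368 were at the low end). These 368 leaned toward Ptprc, with a median rho of 0.21, against 0 over all genes. The limit does not define leukocyte genes, as Mpeg1, Ms4a6d and Cd53 passed 0.5 TPM in a resistant culture. Of 65 ranked genes of the leukocyte lists, 7 were at the high end and 3 at the low end. Among genes that averaged at least 5 TPM in resistant tumors, the 12 highest were Ptprn, Trmt1l, Trove2, Dock10 and Cmpk2 (rho 0.91), Ms4a6d, Pign and Mpeg1 (0.90), and H2-Ab1, Gpbp1l1, Tctex1d2 and Bard1 (0.89). Only Dock10 and H2-Ab1 of these 12 were under 0.5 TPM in every resistant culture. Mpeg1, the pore-forming perforin-2 of macrophages, was at 18.2, 36.9 and 72.7 TPM in the lowest, median and highest resistant tumor, against a mean of 0.255 TPM in resistant culture. Replicate 4 held the most Mpeg1, then replicates 7, 1 and 5, and replicates 11 and 12 the least. Ms4a6d, a macrophage membrane protein, was at 45.8, 58.5 and 109 TPM in resistant tumors and averaged 0.336 TPM in resistant culture. Dock10, an exchange factor for small GTPases, was at 3.44, 6.58 and 11.01 TPM in resistant tumors and listed at 0 in every resistant culture. Cmpk2, a mitochondrial nucleotide kinase induced by interferon, was at 25.4, 47.7 and 93.8 TPM in resistant tumors and averaged 4.15 TPM in resistant culture. Ptprn, a phosphatase-like protein of secretory granules, was at 33.7, 60.3 and 135 TPM in resistant tumors and averaged 56.6 TPM in resistant culture, so cultured cancer cells made it too. Trmt1l, Trove2 (an RNA-binding protein of Ro particles), Pign (an enzyme of GPI anchor synthesis), Gpbp1l1, Tctex1d2 and Bard1 (the partner of Brca1) likewise averaged 16.4 to 64.4 TPM in resistant culture.

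The 12 lowest genes by the same rule were all expressed in resistant culture, at means of 8.43 to 690 TPM. Tnfsf9, the ligand of the T cell costimulator 4-1BB, had the lowest rho at -0.99. It was at 20.99, 25.8 and 41.7 TPM in resistant tumors and averaged 15.9 TPM in resistant culture. Replicate 12, with the least Ptprc, held the most Tnfsf9, and replicates 4 and 7, with the most Ptprc, held the least. The others were Atp6v1g1, a subunit of the vacuolar proton pump, and Gprc5b (both -0.93), Ftl1, the ferritin light chain (-0.92), Fbxl15, Lrig1, an inhibitor of ErbB receptors, and Zfp36l2, an RNA decay factor (-0.92), Itm2c, Mrps26, a mitochondrial ribosomal protein, Arfgap3 and Psmd8, a proteasome subunit (-0.91), and H1f0, a linker histone (-0.90). Ftl1 was at 859, 1126 and 1550 TPM in resistant tumors and averaged 690 TPM in resistant culture. Near-identical copies of Ftl1 exist in the genome, so its value is uncertain. Zfp36l2 was at 151.6, 225.6 and 333 TPM in resistant tumors and averaged 128 TPM in resistant culture.

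**Figure D2:**
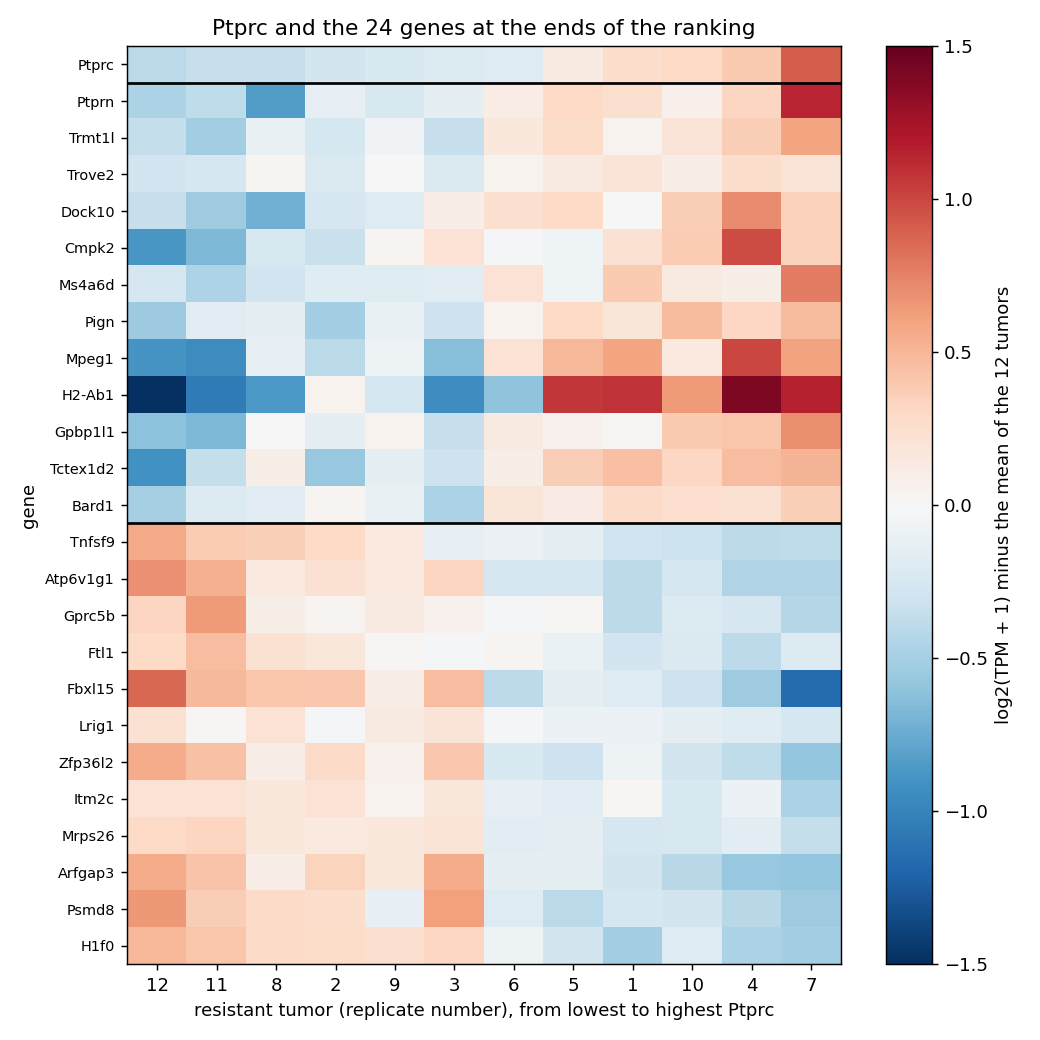
Level of Ptprc and of the 12 highest and 12 lowest genes of the ranking (rows) in each resistant tumor (columns, by replicate number, from 19.7 to 50.3 TPM of Ptprc), as log2(TPM + 1) minus the gene's mean over the 12 tumors. H2-Ab1 has the widest range of the 24, from 10.9 to 99.4 TPM, and replicates 5, 1, 10, 4 and 7 hold 58.5 TPM or more of it.

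Base composition differed between the ends of the ranking. The median GC content of the longest transcript was 44.7% for genes with rho of at least 0.7 and 52.6% for genes with rho of at most -0.7, against 49.5% for all genes. The median transcript lengths were 4386 and 2627 bases. Of genes under 42% GC, 12.7% had rho of at least 0.7 and 2.42% had rho of at most -0.7. Of genes at 55% GC or more, 1.81% and 11.1% did. The first principal component of the 12 tumors carried 37.9% of the variance and had an absolute rho of 0.80 with Ptprc and 0.90 with the GC index. With the GC index held in a partial Spearman correlation, 284 genes were at 0.7 or above and 310 at -0.7 or below, and 196 and 250 of these were also in the groups of 588 and 734. The part of sequencing depth and RNA quality in the ranking was not tested.

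**Figure D3:**
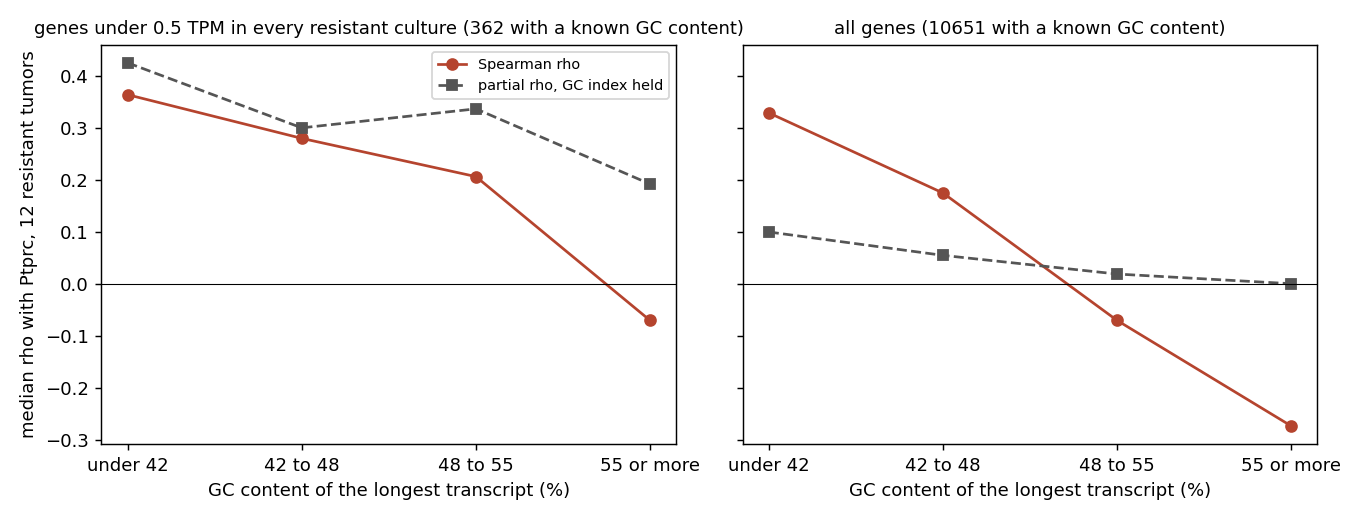
Median rho with Ptprc over the 12 resistant tumors (y axis) in 4 classes of transcript GC content in percent (x axis), for the 368 genes under 0.5 TPM in every resistant culture on the left and all 10808 genes on the right (those with a known GC content). Over all genes the median is 0.33 below 42% GC and -0.27 at 55% GC or more, and 0.10 and 0.00067 as a partial rho with the GC index held.

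The macrophage and monocyte genes leaned toward Ptprc, with a median rho of 0.36 over 24 genes, against 0 over all genes. With the GC index held these medians were 0.46 and 0.03. Of these, 4 had rho of at least 0.7 and are named for that count. C1qb and C1qc, chains of complement C1q made by tissue macrophages, had rho 0.83 and 0.73. Ccr2, the chemokine receptor of inflammatory monocytes, had 0.83, and Cd68, a lysosomal protein of macrophages, had 0.72. C1qb was at 42.7, 107 and 141.5 TPM in resistant tumors and averaged 0.280 TPM in resistant culture. It was lowest in replicates 12 and 3 and highest in replicates 4 and 7. Ccr2 was at 3.38, 6.74 and 10.9 TPM in resistant tumors, with the 5 tumors highest in Ptprc at 7.79 TPM or more and all others at 7.03 TPM or less. Adgre1 (F4/80), Csf1r (the receptor of macrophage growth factor) and C1qa had rho 0.42, 0.66 and 0.53, and Ms4a7 had 0.24. Cd14, the lipopolysaccharide co-receptor, had rho -0.76, and unlike the other 23 it was lower in resistant tumors than in resistant culture (median 9.27 TPM in tumors, against a mean of 17.5 TPM in culture, log2 difference -0.79, SE 0.20, adjusted p = 0.00250).

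Lymphocyte genes were mostly too low to rank. Of 16 T cell genes 3 reached 1 TPM in all 12 resistant tumors, with rho of 0.63 for Cd3e, a chain of the T cell receptor complex, 0.60 for Il2ra and 0.28 for Cd2. Cd3e was at 2.46, 5.24 and 10.6 TPM in resistant tumors, highest in replicate 4, and was listed at 0 in every resistant culture. Of 14 cytotoxic lymphocyte genes 6 passed, with a median rho of -0.24, or -0.02 with the GC index held. Prf1, the pore-forming perforin of killer cells, had rho -0.71 at 2.68, 4.88 and 7.66 TPM. Nkg7, Gzma and Gzmb, all listed at 0 in resistant culture, had rho 0.54, -0.09 and -0.38. Ccl5 and Eomes, with rho 0.23 and -0.63, averaged 124.7 and 9.55 TPM in resistant culture, so cultured cancer cells made them too. Of 10 B cell genes 2 passed, Ighm with rho -0.71 (-0.47 with the index held) and Pax5 with -0.08. Pax5 averaged 26.7 TPM in resistant culture, so it does not stand for B cells alone here. No more than 3 genes passed in the lists of dendritic cells, NK cells and neutrophils, none of them at 0.7 in size. None passed in the mast cell, skin keratinocyte, Schwann cell, red blood cell and epithelial lists. The skeletal muscle and adipocyte lists had 1 gene each.

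MHC class II genes, which present antigen on macrophages, dendritic cells and B cells, had the highest median rho of the immune lists with at least 4 ranked genes, 0.63, with all 6 measured members above 0. H2-Ab1 had rho 0.89, H2-Aa 0.71, H2-Eb1 0.68, H2-DMa 0.58, H2-DMb1 0.44 and Cd74, the invariant chain, 0.28. H2-Ab1, the beta chain of I-A, was at 10.9, 34.7 and 99.4 TPM in resistant tumors and listed at 0 in every resistant culture. The 5 tumors highest in Ptprc held 58.5 to 99.4 TPM of it, and the other 7 held 10.9 to 38.6 TPM. H2-Aa, the alpha chain of I-A, was at 19.1, 48.1 and 70.5 TPM in resistant tumors. With the GC index held, the median of the 6 was 0.77, with 4 genes at 0.7 or above. H2-Aa and H2-Eb1, the 2 of these 3 chain genes matched in the RefSeq table, are shown because the class II chains varied together and class II promoters are known to carry a Y box, the site of the factor NF-Y. Each run is the 250 bases before the RefSeq start in GRCm38.p6, read 5′ to 3′ on the strand of the gene, with ATTGG and its reverse complement CCAAT in capitals.
H2-Aa, chr17:34287824-34288073, minus strand: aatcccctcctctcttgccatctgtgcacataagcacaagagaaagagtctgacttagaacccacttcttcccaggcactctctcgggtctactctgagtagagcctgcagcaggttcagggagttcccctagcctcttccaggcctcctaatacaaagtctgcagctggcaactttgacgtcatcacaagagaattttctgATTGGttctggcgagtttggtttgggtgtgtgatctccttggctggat
H2-Eb1, chr17:34305617-34305866, plus strand: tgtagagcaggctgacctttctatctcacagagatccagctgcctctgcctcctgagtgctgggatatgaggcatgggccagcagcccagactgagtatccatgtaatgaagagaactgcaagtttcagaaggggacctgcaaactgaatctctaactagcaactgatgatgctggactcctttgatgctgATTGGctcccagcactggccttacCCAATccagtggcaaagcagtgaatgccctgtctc

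H2-Aa holds 1 match, which begins 48 bases before the start, and H2-Eb1 holds 2, at 59 and 35 bases before it. These letters occur in 34.5% of 27025 such windows, in 36.2% of the 472 genes with rho of at least 0.7 that have one and in 38.0% of the 560 with rho of at most -0.7.

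MHC class I genes were split, with a median rho of -0.01 over 16 genes, or 0.014 with median-of-ratios scaling and 0.16 with the GC index held. Nlrc5, the transactivator of class I, had rho 0.76. B2m, the class I light chain, had -0.87 and Calr, a chaperone of class I loading, had -0.80. H2-D1 and H2-K1, the class I heavy chains, had -0.67 and -0.63, or -0.42 and -0.21 with the GC index held. B2m was at 7461, 9918 and 13030 TPM in resistant tumors and averaged 1872 TPM in resistant culture. In the same tumors Nlrc5 was at 43.9, 91.9 and 143.9 TPM.

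Genes induced by interferon gamma had a median rho of 0.41 over 16 genes, or 0.35 with the GC index held. Of the 16, 3 were at 0.7 or above, against 5.44% of all ranked genes. These were Gbp4 (0.86) and Gbp7 (0.80), guanylate-binding proteins, and Cxcl11 (0.79), a chemokine that draws CXCR3-bearing T cells. Gbp4 was at 9.66, 12.7 and 29.9 TPM in resistant tumors and averaged 0.182 TPM in resistant culture. Cxcl9 and Cxcl10, which share the receptor of Cxcl11, had rho 0.43 and 0.12. Type I interferon genes had a median of 0.24 over 25 genes, or 0.39 with the index held. Of the 25, 4 were at 0.7 or above, beside the same 5.44%, Cmpk2 (0.91), Mx2 (0.83), Ifi44 (0.80) and Oasl2 (0.75). Isg15, the ubiquitin-like modifier of that response, had -0.24 and Ifit1 had 0.03. Cd274, the gene of PD-L1, was at 6.51, 19.7 and 32.97 TPM in resistant tumors with rho 0.76, or 0.58 with the GC index held. Replicate 12 held the least Cd274 and replicates 1, 4 and 7 the most. Of the chemokines and cytokines, Ccl7, a monocyte attractant, had 0.73 and was the 1 of 15 at 0.7 or above, a share near the 5.44% of all ranked genes. None of the 15 was at 0.7 with the GC index held.

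Fibroblast and matrix genes had a median of 0.27 over 17 genes, or 0.05 with the GC index held. Col1a1 and Col1a2, the chains of type I collagen, had 0.83 and 0.77, or 0.70 and 0.73 with the index held. Col1a1 was at 13.0, 427 and 618.5 TPM in resistant tumors and averaged 5.19 TPM in resistant culture. It was at 156.6 TPM or less in replicates 12, 3, 11, 2 and 9 and at 426.6 TPM or more in all others. Dcn and Pdgfra, also of fibroblasts, had rho 0.27 and -0.20, and Dcn had -0.25 with the index held. Endothelial genes had a median of -0.10 over 14 genes, or 0.08 with the index held, with none at 0.7 in size. Of 7 mitochondrially encoded genes that could be ranked, 4 had rho of at least 0.7, with a median of 0.80, or 0.72 with the index held. The other 6 of the 13 listed were under the limit, so the mitochondrial share rests on part of that genome.

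Several metabolic, growth and stress lists leaned the other way. All 15 ranked glycolysis and hypoxia genes had a rho below 0, with a median of -0.54, or -0.51 with the GC index held. Eno1, a glycolytic enzyme, had -0.83, Slc2a1, the glucose transporter, -0.80, and Ndrg1 -0.71. Slc2a1 was at 153.9, 248.9 and 413 TPM in resistant tumors. Cell cycle genes had a median of -0.43 over 21 genes, or -0.17 with the GC index held, with Mcm3, Aurka and Cdk1 at -0.84, -0.79 and -0.76 and Bub1 at 0.73. Mki67 had -0.45 and Top2a -0.43. Genes of the integrated stress response had a median of -0.50 over 12 genes, or -0.36 with the GC index held, with Atf4 and Phgdh at -0.71 and Psat1 and Slc7a11 at 0.78 and 0.71. Cytosolic ribosomal protein genes, which have many near-identical copies and are uncertain, had a median of -0.29 over 32 genes, or -0.07 with the GC index held. Of the 32, 4 were at -0.7 or below, against 6.79% of all ranked genes. Ranked against the pan-leukocyte score in place of Ptprc, the cell cycle and ribosomal medians were 0.34 and 0.09, and those of glycolysis and hypoxia and of the integrated stress response were -0.34 and -0.10. With that score and the GC index held, these 4 medians were 0.09, -0.10, -0.46 and -0.36, in the same order.

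Other lists were mixed, and the members named from them were chosen after their values were seen. Of 12 TGF-beta response genes, Tgfbr1, the type I receptor, had rho 0.87 and the median was 0.19, or 0.18 with the GC index held. Chaperones of the endoplasmic reticulum had a median of -0.26 over 12 genes, or -0.33 with the index held, with Hspa5 at -0.80 and Hsp90b1 at -0.79. Immediate early genes had a median of -0.27 over 11 genes, or -0.03 with the index held, with Egr3 at -0.81. Cholesterol synthesis genes had a median of -0.03 over 15 genes, or -0.40 with the index held, with Srebf2 at -0.80 and Fdft1 at -0.77. Nuclear oxidative phosphorylation genes had a median of 0.08 over 14 genes, or 0.30 with the index held, beside the 0.80 of the mitochondrially encoded ones. Of the 14, 1 was at -0.7 or below, a share near the 6.79% of all ranked genes.

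**Figure D4:**
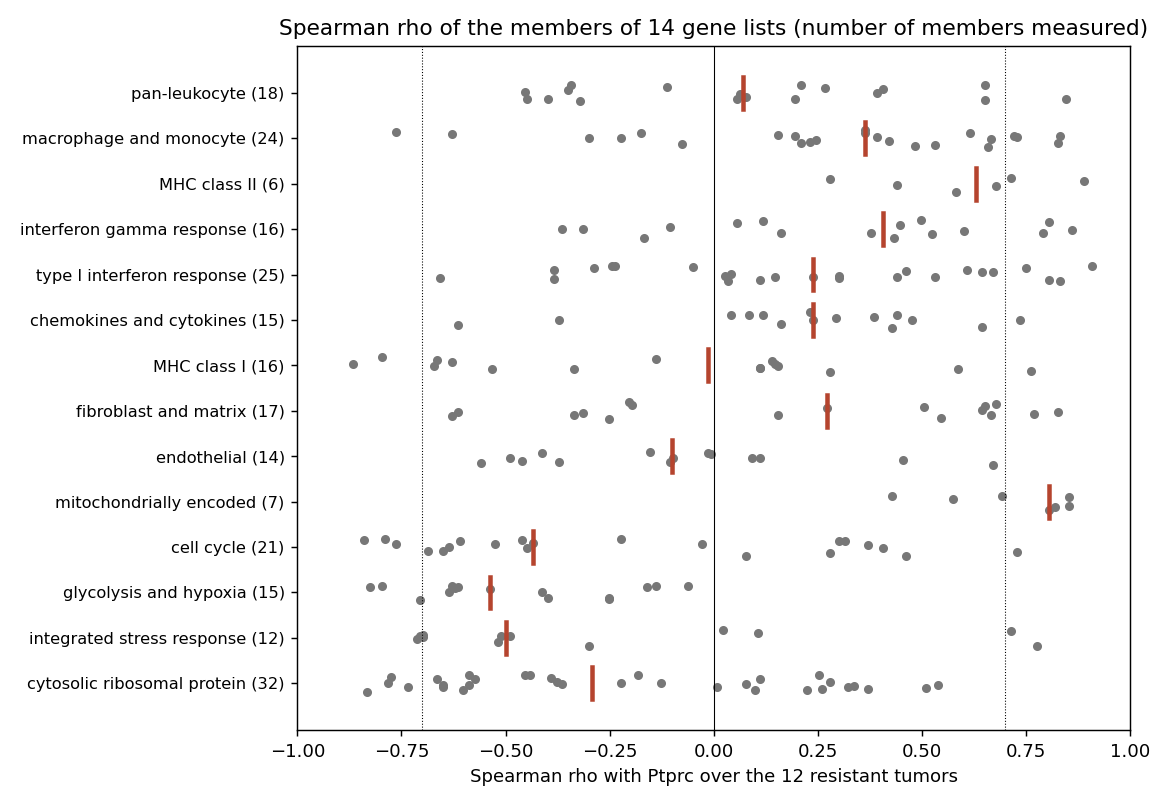
Spearman rho with Ptprc over the 12 resistant tumors (x axis) for each ranked member of 14 gene lists (rows, number of members in brackets), with a red bar at the median and dotted lines at 0.7 and -0.7. The medians run from -0.54 for glycolysis and hypoxia to 0.80 for mitochondrially encoded genes, with 0.07 for pan-leukocyte genes.

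The same measure was then tested in the 13 parental tumors, which took no part in the ranking. Each gene's log2(TPM + 1) was fitted with limma against log2(Ptprc TPM + 1), two-sided, with Benjamini-Hochberg adjustment over 10621 genes, and a gene was called at an adjusted p under 0.05. In all, 1125 genes rose with Ptprc (10.6%) and 787 fell (7.41%). Of 552 genes with rho of at least 0.7 in resistant tumors that could be tested, 204 rose and none fell (37.0%, and 344 of the 552 had an unadjusted p under 0.05). Of 727 with rho of at most -0.7, 224 fell and 1 rose (30.8% and 0.138%). In the fit that held the GC index the calls over all genes were 97 (0.913%) and 3 (0.0282%). Then 14 of the 552 rose (2.54%) and none fell, and 2 of the 727 rose and none fell, with 64 and 49 at an unadjusted p under 0.05. The median slope of the 552 was 0.01 in that fit and 0.54 without the index, that of the 727 was 0.02 and -0.41, and that of all genes 0.03 and 0.05. Without the 4 parental tumors with a GC index above 0.5, which left 9 tumors, no gene was called in either direction and 760 had an unadjusted p under 0.05. Those 4 (replicates 2, 3, 7 and 8) were also the 4 lowest parental tumors in Ptprc, at 14.5 to 30.9 TPM, so leaving them out narrowed the range of both measures, whose parts in the lost calls cannot be told apart. The calls also turned on single tumors. They were 542 and 280 without parental replicate 2, 1739 and 1198 without replicate 3, 679 and 455 without replicate 4, 563 and 342 without replicate 7, 432 and 230 without replicate 10, and 682 and 480 without replicate 13. The covariate and Ptprc are related in these tumors (rho -0.77), and their parts cannot be fully told apart.

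Of the 12 highest genes of the ranking, 5 rose with Ptprc in parental tumors and none fell. The slope is the log2 change per unit of log2 Ptprc. H2-Ab1 had a slope of 2.17 (SE 0.35, adjusted p = 0.00343), Mpeg1 1.65 (SE 0.19, adjusted p = 0.000300) and Dock10 1.05 (SE 0.20, adjusted p = 0.00696). Trmt1l had 0.54 (SE 0.14, adjusted p = 0.0206) and Ms4a6d 0.52 (SE 0.14, adjusted p = 0.0244). Once the GC index was held Mpeg1 kept 1.39, Dock10 1.32 and Ms4a6d 0.79 (adjusted p = 0.0169, 0.0303 and 0.0346). H2-Ab1 then had 1.11 (adjusted p = 0.231) and Trmt1l 0.38 (adjusted p = 0.456). Of the 12 lowest, 4 fell and none rose, Psmd8 with -0.75 (SE 0.20, adjusted p = 0.0257), Fbxl15 with -0.73 (SE 0.23, adjusted p = 0.0403), Atp6v1g1 with -0.64 (SE 0.19, adjusted p = 0.0334) and Ftl1 with -0.38 (SE 0.12, adjusted p = 0.0381). With the covariate these 4 had slopes of -0.02, 0.03, -0.01 and -0.24 and adjusted p-values of 0.656 to 0.989. Tnfsf9, the lowest in resistant tumors, had -0.52 in parental tumors (SE 0.23, adjusted p = 0.109).

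**Figure D5:**
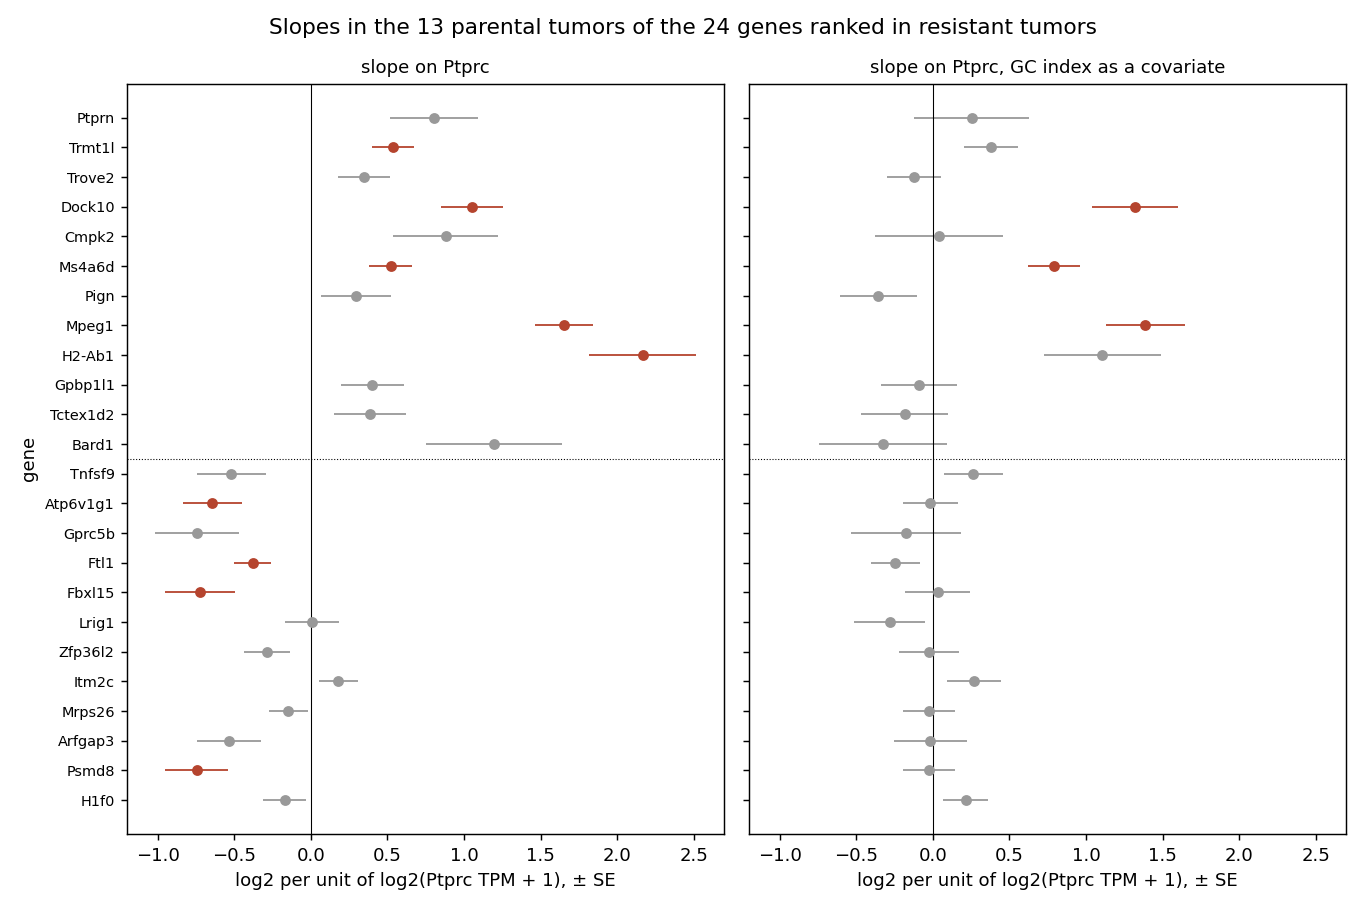
Slope on Ptprc in the 13 parental tumors with its SE (x axes, log2 per unit of log2(Ptprc TPM + 1)) for the 24 genes at the ends of the resistant ranking (rows), without a covariate on the left and with the GC index on the right. Red points passed an adjusted p of 0.05, 9 of 24 on the left and Dock10, Ms4a6d and Mpeg1 on the right.

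The lists were read in the parental fit beside those shares of all genes. Of 22 macrophage and monocyte genes 14 rose and 1 fell (Cd14, slope -1.03, adjusted p = 0.0168), and 9 rose and none fell with the covariate. C1qb had a slope of 1.91 (SE 0.20, adjusted p = 0.000148), or 1.66 with the covariate (adjusted p = 0.00866). Of 6 MHC class II genes 3 rose, and 4 with the covariate. H2-Aa had 1.49 (SE 0.30, adjusted p = 0.00824), or 2.06 with the covariate (adjusted p = 0.0186). Of 18 pan-leukocyte genes 8 rose, and 6 when the covariate was in. Of 16 interferon gamma genes 9 rose and of 25 type I interferon genes 7, and none of either passed with the covariate, where 9 and 7 had an unadjusted p under 0.05. Over all members of these 2 lists the median slopes were 0.46 and 0.30 with the covariate and 0.43 and 0.33 without it. The slopes of the called genes alone were not compared. Of 16 glycolysis and hypoxia genes 6 fell and of 32 ribosomal protein genes 10, and none of either passed in the fit with the covariate, where 3 and 8 had an unadjusted p under 0.05. Their median slopes were -0.32 and -0.26 with the covariate, against -0.43 and -0.27 without it. Of 24 genes with rho of at least 0.7 and under 0.5 TPM in every resistant culture that could be tested, 16 rose (66.7%), and 8 with the covariate (33.3%). Of all 282 tested genes under 0.5 TPM in every resistant culture, whatever their rho, 88 rose (31.2%), and 40 with the covariate (14.2%).

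The slopes of the 2 lines were compared in 1 fit over the 25 tumors and 10363 genes, where genes chosen for their rho cannot be read. No gene had a higher slope in resistant than in parental tumors (0.0%), 2 had a lower one (0.0193%), and 904 had an unadjusted p under 0.05. Slc15a3, a lysosomal peptide and histidine transporter of leukocytes, had a slope of -0.12 in resistant tumors, against 1.79 in parental tumors, a difference of -1.91 (SE 0.32, adjusted p = 0.0248). It was at 76.7, 119 and 159.6 TPM in resistant tumors, against 15.8, 84.5 and 163.9 TPM in parental tumors. Dhcr7, the last enzyme of cholesterol synthesis, had -0.44 in resistant tumors, against 0.74 in parental tumors, a difference of -1.18 (SE 0.22, adjusted p = 0.0482). With the index held in that fit 1 gene was higher (0.00965%) and 20 lower (0.193%). No call was left without resistant replicate 2, 7, 10 or 12 or parental replicate 10, and without parental replicate 3 there were 23 higher and 169 lower. The difference between lines in the relation of the pan-leukocyte score to Ptprc was not tested.

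Set against cultured cells of the same line, resistant tumors were higher in 4342 of 12312 genes (35.3%) and lower in 1847 (15.0%). Titles of all tumor libraries begin with GPN and those of all culture libraries with MJ, so setting and title series cannot be told apart. With median-of-ratios scaling, which moved the median log2 difference over all genes to 0.06, against 0.18 unscaled, the counts were 3666 (29.9%) and 2603 (21.2%). All 18 pan-leukocyte genes were higher in tumors than in culture, with a median log2 difference of 3.07, and 23 of 24 macrophage and monocyte genes were, with a median of 4.29. Of the 588 genes at the high end of the Ptprc ranking, 144 (24.5%) were higher in tumors and 107 (18.2%) lower. Of the 734 at the low end, 247 (33.7%) were higher and 74 (10.1%) lower. Of the 12 highest genes of the ranking 6 were higher in tumors and 1 lower. Mpeg1 differed by 4.90 on the log2(TPM + 1) scale (SE 0.27, adjusted p = 2.88e-12) and Ms4a6d by 5.66 (SE 0.19, adjusted p = 1.96e-15), while Ptprn differed by 0.23 (SE 0.27, adjusted p = 0.502). Bard1 was the 1 lower gene, by -0.39 (SE 0.15, adjusted p = 0.0300). Of the 12 lowest, 7 were higher in tumors and none lower, among them Gprc5b by 1.95 (SE 0.15, adjusted p = 5.13e-10) and Tnfsf9 by 0.78 (SE 0.16, adjusted p = 0.000341).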

How the data were processed

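The authors deposited 1 table of TPM by mouse gene symbol for 32 libraries of poly(A) RNA, and all 32 columns were used. RNA was extracted with a Qiagen kit and turned into libraries with KAPA HyperPrep, per the labels' protocols. Per the submitters' processing notes, STAR and GRCh38 were used. GRCh38 is a human build, while 98.4% of the 22329 symbols matched GENCODE mouse release M21. The quantifier is not given in the sources used here. Every column sums to 1000000, values reach down to 8.57e-317, and so counts cannot be recovered and depth is unknown. Precision rests on the spread between libraries.

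Groups follow the line and setting in the labels, and replicate numbers follow deposition order and pair nothing. Where the labels do not say that libraries came from separate cultures, p-values cover the spread between those libraries alone, and that spread may be technical. No 2 libraries of a group held identical values, and correlations between resistant tumors ran from 0.907 to 0.975. The members, lists and tests were chosen with earlier results of these data known.

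Spearman rho with Ptprc was computed over the 12 resistant tumors for genes at 1 TPM or more in all 12. Fits used limma 3.58.1 in R 4.3.3 with an intensity trend on log2(TPM + 1), a pseudocount of 1, which understates changes of low genes. Parental and joint fits took genes at 1 TPM in all their tumors, and the culture fit genes at 1 TPM in at least 5 libraries. Scores are mean log2(TPM + 1). Relations of scores and library measures in parental tumors have two-sided permutation p-values (100000 resamples), adjusted by Benjamini-Hochberg over 7 relations. GC content and length are those of the longest GENCODE transcript, available for 98.6% of 10046 genes that averaged 5 TPM or more over all tumors. Named genes are the 12 highest and 12 lowest by rho with a mean of at least 5 TPM, leaving aside Xist, Y-linked genes, pseudogenes, segments of antigen receptors and unnamed gene models, then the first 4 members of each list and any gene behind a count of 5 or fewer. List members named beyond these were chosen after their values were seen. Some genes of the lists are not reported here.

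On simulated data, the parental fit over 10704 genes recovered 66% of slopes of 1 and 97.0% of slopes of 2, the slope difference over 10448 genes 32% and 89%, and the culture fit over 12554 genes 90% and 99% of such differences. Alternatives were other filters, pseudocounts and scaling, Pearson's r, the pan-leukocyte score, the GC index and leaving out each library. Scores and ranks were computed in Python 3.11.15 (pandas 2.3.3, scipy 1.17.1, numpy 2.4.6), and matplotlib 3.10.9 drew the figures.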

Additional observations from a re-analysis of the deposited data

Results flagged for a closer look

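The slope on Ptprc differed between the lines for Slc15a3 (resistant minus parental tumors -1.91, adjusted p = 0.0248) and for Dhcr7 (-1.18, adjusted p = 0.0482) in limma's test of the difference itself. The calls were lost in 8 of 33 alternatives for Slc15a3 and in 21 of 33 for Dhcr7, with the direction kept in each.

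Zfp36l2 in resistant culture had 1 library apart from the other 4. Replicate 1 held 147 TPM and the others 118 to 127 TPM, and the gap to the nearest was 0.711 of the range, against a critical value of 0.71. Chance marks about 1 in 20 such groups. The rule was applied to several library measures and to the genes at the ends of the ranking that averaged 1 TPM or more there. With that many checks, a single mark can arise by chance.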

How the results depend on the processing

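Genes with rho of at least 0.7 and of at most -0.7 (588 and 734) numbered 330 and 485 with Pearson's r, 126 and 65 with the pan-leukocyte score in place of Ptprc, 207 and 127 with that score and the GC index held, 124 and 83 with the 33-gene score, 284 and 310 with the GC index held, and 1041 and 1476 in the 7 tumors with titles from 51 to 60. Leaving out each tumor gave 494 to 1015 and 558 to 1380. No gene was shared between the Ptprc ranking and the pan-leukocyte ranking at either end when the GC index was not held. With that score and the index held, 53 and 61 genes were also among the 588 and 734. With the 33-gene score 46 and 35 were. Parental calls (1125 and 787) were 70 and 3 with the pan-leukocyte score, 97 and 3 with the GC index, 121 and 2 with both and 0 and 0 without the 4 tumors of high GC index, also the 4 lowest in Ptprc, where 760 genes had an unadjusted p under 0.05 in limma. Median-of-ratios scaling gave 1184 falling. Leaving out each tumor gave 432 to 1739 and 230 to 1198. Slope differences (0 and 2) had 1 and 20 with the GC index, and lower slopes numbered 0 without a filter, with the pan-leukocyte score and without the 4 tumors, and 1 with median-of-ratios scaling. Leaving out each tumor gave 0 to 23 and 0 to 169. Tumor and culture counts ranged from 3877 to 4386 and from 1577 to 1857 when each library was left out. The causes were not tested.

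With the pan-leukocyte score in place of Ptprc, rho changed sign for Trmt1l (-0.16), Trove2 (-0.014), Ms4a6d (-0.014), Pign (-0.17), Gpbp1l1 (-0.19), Tctex1d2 (-0.13), Atp6v1g1 (0.042), Fbxl15 (0.11), Zfp36l2 (0.19), Itm2c (0.30), Arfgap3 (0.0839) and Psmd8 (0.0559). With that score and the GC index held, each of these genes had the sign it had with Ptprc. The values then ran from 0.355 (Pign) to 0.70 (Trove2) and from -0.11 (Itm2c) to -0.65 (Atp6v1g1). Parental slopes changed sign for Fbxl15 with the GC index (0.0329), and without the 4 tumors for Fbxl15 (0.14), Atp6v1g1 (0.18) and Ftl1 (0.13). The 33-gene score, the pan-leukocyte score with the GC index, and leaving out the 4 tumors were added after the data were seen. No paired analysis was possible because the lines and settings share no replicate numbers in the labels. Unknown depth limits every low gene.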
